A study of Homo sapiens with 12 samples.

Results

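Long noncoding RNAs and the transcripts that carry microRNAs were examined in U-87MG cells treated with ligands of AHR, the aryl hydrocarbon receptor, which binds small molecules and then acts on DNA as a transcription factor. The members were chosen by name alone. A row of the expression table was taken when its single platform gene symbol began with LINC and a number, with SNHG or with MIR and a number, or ended in -AS1, -AS2, -IT1 or HG. The rule found 273 of the 15759 rows. They comprised 149 antisense transcripts, 74 intergenic (LINC) transcripts, 37 microRNA hairpins, 6 microRNA host genes, 5 small nucleolar RNA host genes (SNHG) and 2 intronic transcripts. MIR155HG was known from earlier results of these data to respond, and the other members were asked which else did.

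The series held 12 Affymetrix whole-transcript arrays of U-87MG, an established human glioblastoma line, 1 array per sample and 4 per group. All 3 groups carried the control shRNA shCtrl, and treatment lasted 24 h. One group received DMSO as solvent. Another received FICZ at 100 nM, a photoproduct of tryptophan that binds AHR strongly, and the remaining one KynA, the tryptophan metabolite kynurenic acid, at 50 µM. A growth protocol shared with other experiments also names cells expressing IL4I1, and the labels of these 12 samples list no IL4I1. The labels call the samples biological replicates without saying whether they were separate cultures, so a p-value here reflects the spread among these arrays, part of which may be technical. All cells are of 1 line, and the 2 ligands were given at different doses and compared with the same DMSO arrays.

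Long noncoding RNAs are transcribed and often spliced like messenger RNAs but are not known to encode a protein. An antisense transcript runs opposite to a protein-coding gene and may overlap it. A microRNA host gene is a longer transcript from which a hairpin is cut and trimmed to a mature microRNA, and the seed of that microRNA, its bases 2 to 8, pairs with target messenger RNAs. SNHG transcripts carry small nucleolar RNAs in their introns, and the spliced remainder is often degraded by nonsense-mediated decay. MIR155HG is the host of miR-155, a microRNA induced in activated immune cells and raised in many tumours. None of the values below is taken as the level of a mature microRNA, since the probe positions of these arrays were not used here.

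The microRNAs of MIR155HG, of MIR100HG and its relative LINC00478, and of LINC00461 are shown first, since they name the products that each host carries. The single-symbol row of LINC00461 had the lowest FICZ difference of the host transcripts, while a row it shares with MIR9-2 went the other way. The mature sequences are those of RefSeq on GRCh38.p14, written 5′ to 3′ with the seed in capitals.
miR-155-5p in MIR155HG (chr21:25573983-25574006, plus strand): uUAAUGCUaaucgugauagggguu
miR-155-3p in MIR155HG (chr21:25574022-25574043, plus strand): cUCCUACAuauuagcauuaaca
miR-100-5p in MIR100HG (chr11:122152275-122152296, minus strand): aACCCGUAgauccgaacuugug
miR-99a-5p in LINC00478 (chr21:16539101-16539122, plus strand): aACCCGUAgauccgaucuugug
let-7a-5p in MIR100HG (chr11:122146568-122146589, minus strand): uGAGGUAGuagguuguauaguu
let-7c-5p in LINC00478 (chr21:16539838-16539859, plus strand): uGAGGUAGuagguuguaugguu
miR-125b-5p in MIR100HG (chr11:122099809-122099830, minus strand): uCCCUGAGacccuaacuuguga
miR-9-5p in LINC00461 (chr5:88666902-88666924, minus strand): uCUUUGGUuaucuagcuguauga
RefSeq also places MIR10526 within MIR100HG. The current symbol of LINC00478 is MIR99AHG and that of LINC00461 is MIR9-2HG, so both are microRNA hosts under an intergenic name, as is LINC00925, now MIR9-3HG. MIR100HG and LINC00478 carry related clusters. The seed ACCCGUA is shared by miR-100-5p and miR-99a-5p, and the seed GAGGUAG by let-7a-5p and let-7c-5p. The same mature miR-125b-5p comes from both transcripts.

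Of the 37 hairpin rows, 33 matched a mature sequence. The 3 shown here are the named hairpins that differed most after FICZ, without passing the test.
miR-933 in MIR933 (chr2:175167642-175167663, minus strand): uGUGCGCAgggagaccucuccc
miR-4692 in MIR4692 (chr11:72783566-72783587, plus strand): uCAGGCAGuguggguaucagau
miR-891a-5p in MIR891A (chrX:146027841-146027862, minus strand): uGCAACGAaccugagccacuga
No seed is shared among these 3.

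RefSeq's promoter windows, 250 bases before a transcript start and 50 after it, are shown for the 2 members that differed most after FICZ. Both genes lie on chromosome 21. Capitals mark the AHR core motif GCGTG on either strand (read as CACGC on the other strand) and, for MIR155HG, the AP-1 motif TGANTCA.
ZNF295-AS1 promoter window (chr21:42008944-42009243, plus strand): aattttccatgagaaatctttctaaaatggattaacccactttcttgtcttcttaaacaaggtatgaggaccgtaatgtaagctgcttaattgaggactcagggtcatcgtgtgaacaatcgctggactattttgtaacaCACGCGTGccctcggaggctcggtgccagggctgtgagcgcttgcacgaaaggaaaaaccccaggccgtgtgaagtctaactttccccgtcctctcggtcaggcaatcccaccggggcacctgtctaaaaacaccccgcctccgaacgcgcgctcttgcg
MIR155HG promoter window (chr21:25561895-25562194, plus strand): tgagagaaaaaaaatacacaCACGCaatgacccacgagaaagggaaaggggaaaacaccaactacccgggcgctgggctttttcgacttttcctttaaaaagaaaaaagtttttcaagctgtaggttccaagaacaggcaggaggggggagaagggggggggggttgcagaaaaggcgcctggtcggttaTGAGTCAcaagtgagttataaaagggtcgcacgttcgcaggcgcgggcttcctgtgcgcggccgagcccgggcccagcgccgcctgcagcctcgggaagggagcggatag
The window of ZNF295-AS1, the first of its 3 annotated starts, held CACGC 110 bases and GCGTG 107 bases before the start, and the 2 matches overlap. The windows of its other starts each held 0 matches to the core. The MIR155HG window held CACGC 230 bases before the start, where it also matched the longer motif TNGCGTG, and TGAGTCA 60 bases before it. The core is common. It stood in 36.5% of the 35116 promoter windows in the table and in 44.4% of the 259 windows of the 195 members that had one. For TNGCGTG the shares were 5.51% and 10.0%, for the NF-κB motif (GGG and CC around 5 unspecified bases) 58.7% and 60.6%, and for TGANTCA 7.71% and 9.65%. The printed windows also held NF-κB matches, 2 for ZNF295-AS1 and 1 for MIR155HG, which are not marked. A match is a run of letters, and the arrays say nothing of whether a factor was bound there.

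Signals are log2 values normalised by RMA, and differences are differences of group means on that scale, with their SE. The noncoding rows sat low on this scale. Their DMSO means had a median of 7.69, against 8.31 for all rows, and 48.0% of them (131) lay below the lower quartile of the table. The mean SD within a group was 0.237 for the members and 0.191 for all rows, and the median SE of a difference was 0.140 against 0.116. The table has no rows with a mean under 6.496, so dimmer noncoding transcripts are not analysed here. Correlations between arrays ran from 0.938 to 0.975. Array FICZ 4 stood apart. On the first principal component it scored 33.6, against 17.7 for the next array, FICZ 2, and its array weight of 0.552 was the lowest. It was the highest of the FICZ arrays for 95 of the 273 members. Of 7 glial markers read beside the U-87MG label, VIM had a mean signal of 13.1 in DMSO, CHI3L1 10.8 and CD44 10.3. GFAP, the classical astrocyte marker, had 8.03, under the all-row median of 8.31. None of the 7 glial markers passed in any comparison. Haematopoietic cells are the best known source of MIR155HG. Of their 8 markers 4 had a row, and none of these passed after FICZ. PTPRC had 8.06 and ITGAM 7.41 in DMSO, and ITGAM differed by 0.72 after FICZ (limma adjusted p = 0.305). Of the 4, 2 had a positive FICZ difference, and their median was 0.09.

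FICZ against DMSO asked which noncoding transcripts changed with the ligand. Of 9 known AHR responders with a row, a list drawn up with earlier results of these data known, 7 rose. They included TIPARP, an ADP-ribosyltransferase, by 1.21 ± 0.139 (adjusted p = 0.00153), and AHRR, the AHR repressor, by 0.97 ± 0.151 (adjusted p = 0.0124). Without DMSO 1 the count was 5. NQO1 (0.09, adjusted p = 0.806) and ALDH3A1 (-0.11, adjusted p = 0.781) did not pass, and CYP1A1, also listed, had no row. Of the noncoding members, 1 of 273 (0.366%) passed limma's test at an adjusted p under 0.05, where 0.387% of all rows passed (61 of 15759, 46 higher and 15 lower). The count of 61 fell to 28 without DMSO 1, 37 without DMSO 3 and 39 without FICZ 2. At an unadjusted p under 0.05 there were 39 members, 29 higher and 10 lower, or 14.3%, against 13.3% of all rows. The groups did not overlap for 20 members (7.33%), against 7.16% of all rows. The list as a whole was therefore called about as often as the table. At least 2-fold differences were seen for 3 members (1.10%), against 0.184% of all rows.

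The member that rose was ZNF295-AS1, an antisense transcript to ZBTB21, which encodes a zinc finger repressor formerly called ZNF295. Its log2 signal was 6.05, 6.90, 6.64 and 6.94 in the DMSO arrays, 8.06, 7.65, 8.15 and 8.21 in the FICZ arrays, and 7.29, 7.14, 7.64 and 7.16 in the KynA arrays. The 3 groups formed separate ranges, with every FICZ array above every KynA array and every KynA array above every DMSO array. The rise with FICZ was 1.38 ± 0.191 (2.61-fold, 95% interval 0.97 to 1.80 on the log2 scale, n = 4 against 4, limma adjusted p = 0.00537). ZNF295-AS1 passed in each of the 12 fits that left out 1 array, with differences of 1.19 to 1.504 and adjusted p from 0.00607 to 0.0238. It was dim without FICZ, at a DMSO mean of 6.63, and both filters on dim rows removed it. Whether all cells of a culture made more of the transcript or a part of them did cannot be told apart in RNA from whole cultures.

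**Figure D1:**
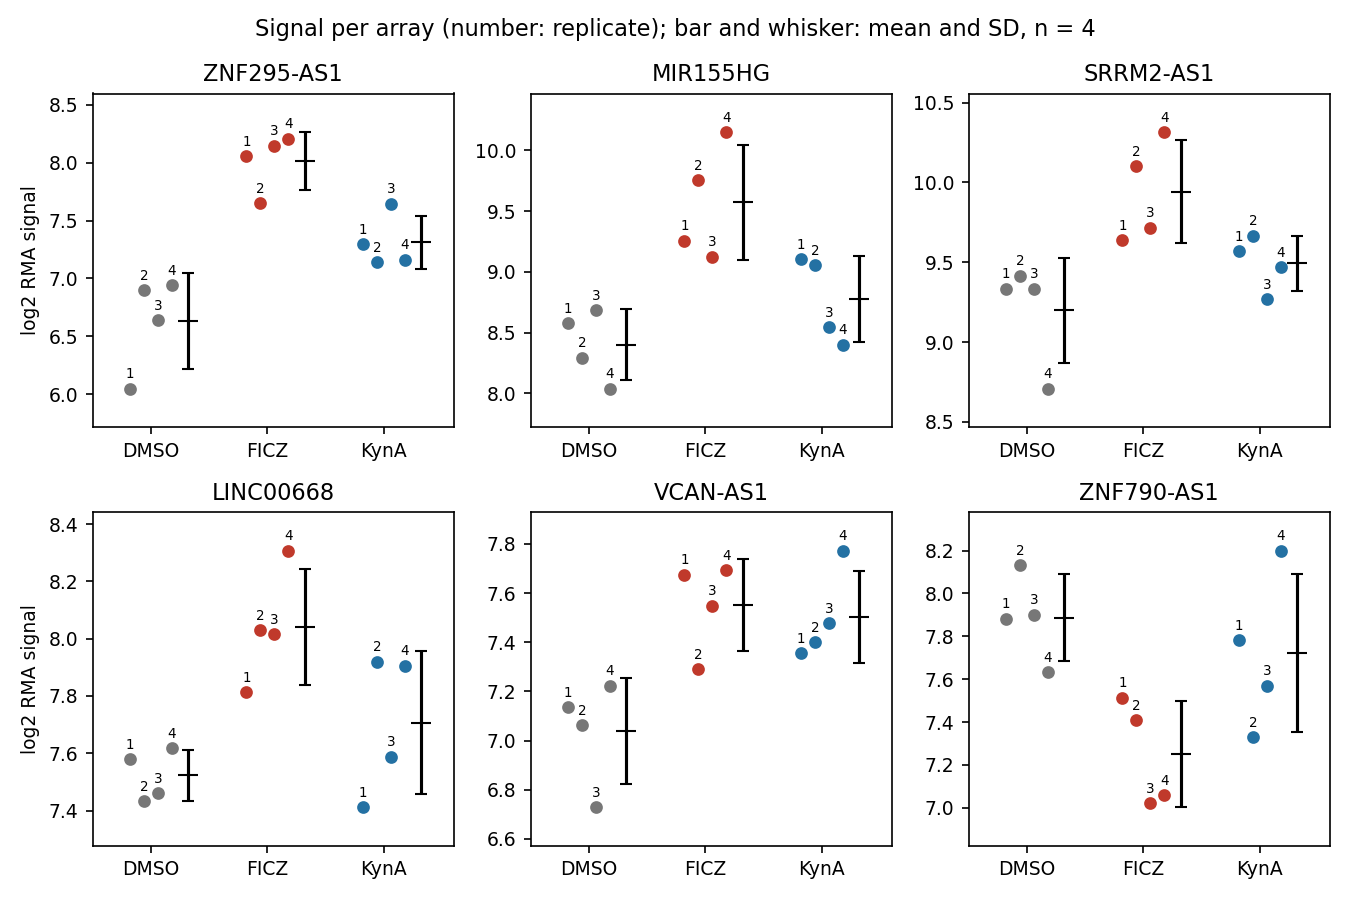
Log2 signal of 6 noncoding members on each array, with the replicate number beside each point and the group mean and SD (n = 4) as a bar and whisker. For ZNF295-AS1 the FICZ arrays lie at 7.65 to 8.21 and the DMSO arrays at 6.05 to 6.94. For MIR155HG the FICZ arrays lie at 9.12 to 10.15, above all DMSO arrays and just above the highest KynA array at 9.10. For ZNF790-AS1 the FICZ arrays lie below the DMSO arrays.

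The neighbours of ZNF295-AS1 on chromosome 21 did not share the size of its change. ZBTB21 itself differed by 0.22 ± 0.0897 (adjusted p = 0.326), with a DMSO mean of 8.57. C2CD2, a C2 domain protein gene beyond it on the same side, rose by 0.44 ± 0.0824 (adjusted p = 0.0395), with all FICZ arrays above all DMSO arrays. That call was kept in only 2 of the 12 fits that left out an array, those without FICZ 4 and without KynA 1, and was lost with only the 8 arrays of these groups (adjusted p = 0.0951, the highest of the other settings, which began at 0.00983). On the other side UMODL1 differed by -0.75 (adjusted p = 0.133) and ABCG1, a cholesterol exporter, by 0.31 (adjusted p = 0.493). The neighbours were chosen after the values were seen, as the next 2 rows with 1 symbol on each side in RefSeq's gene order.

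MIR155HG gave 8.58, 8.30, 8.69 and 8.04 in the DMSO arrays, 9.26, 9.76, 9.12 and 10.15 in the FICZ arrays, and 9.10, 9.06, 8.54 and 8.40 in the KynA arrays. All FICZ arrays lay above all DMSO arrays, while the KynA and DMSO arrays overlapped. The FICZ difference was 1.17 ± 0.231 (2.25-fold, 95% interval 0.67 to 1.67, unadjusted p = 0.000208). Over all rows its adjusted p was 0.0501, just outside the threshold. Across the other settings the adjusted p ran from 0.0189 to 0.0929 for MIR155HG, FICZ vs DMSO, and it passed, among others, with either filter on dim rows. Leaving out 1 array gave differences of 0.98 (without FICZ 4) to 1.32 (without FICZ 3), and only the fit without FICZ 3 passed (adjusted p = 0.03002, against up to 0.145 without DMSO 4). The value after FICZ thus stood on the border of the threshold, and its spread was the widest where the signal was highest, with an SD of 0.473 in FICZ and 0.292 in DMSO.

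The genes beside MIR155HG on chromosome 21 did not pass. NCAM2, a neural cell adhesion gene, differed by 0.42 ± 0.115 (adjusted p = 0.136) without overlap between the groups, TMPRSS15 by -0.02, MRPL39 by -0.24 and JAM2 by 0.20. Factors known to act on the MIR155HG promoter were compared as well. Of 15 NF-κB, AP-1, MYB, ETS and STAT genes, all with a row, 0 passed in either direction with limma, 0 also had an unadjusted p under 0.05, and their median difference was -0.01, against -0.02 for all rows. RELB, an NF-κB subunit, differed by 0.19 (adjusted p = 0.561) and JUNB, an AP-1 subunit, by 0.15 (adjusted p = 0.523). These are transcript signals, and the activity of the factors was not tested. Of 21 textbook targets of miR-155, 18 had a row of their own symbol and 0 passed, with 3 at an unadjusted p under 0.05. The share of all rows at that threshold was 13.3%. JARID2, a Polycomb cofactor, differed by 0.55 ± 0.140 (adjusted p = 0.121), CEBPB, a transcription factor, by 0.27 ± 0.0848 (0.201), and IKBKE, a kinase of innate immune signalling, by -0.28 ± 0.104 (0.268). The median of the 18 was -0.05. BACH1, a repressor of oxidative stress genes, shares its row with GRIK1-AS2, and that row differed by 0.14 (adjusted p = 0.669). Of 12 genes that make or use microRNAs, such as DROSHA and DICER1, 11 had a row of their own symbol and 1 a shared row. None of the 12 passed, 0 had an unadjusted p under 0.05, and DICER1 differed by -0.00075 on the log2 scale. DGCR8, the partner of DROSHA, shares its row with MIR1306 and differed by -0.02.

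The other 5 microRNA host genes did not pass. MIR100HG had the largest difference among them. Its signal was 7.34, 8.42, 8.00 and 7.80 in the DMSO arrays, 8.52, 9.53, 8.20 and 8.45 in the FICZ arrays, and 8.47, 8.12, 7.93 and 7.79 in the KynA arrays. Array FICZ 2 stood above the rest and DMSO 2 reached into the FICZ range, so that the groups overlapped. The FICZ difference was 0.79 ± 0.276 (95% interval 0.19 to 1.38, adjusted p = 0.249). MIR181A1HG, host of miR-181a and miR-181b, differed by 0.38 ± 0.381 (adjusted p = 0.703). MIR503HG, from the X-linked miR-503 locus, differed by 0.25 ± 0.179 (adjusted p = 0.577). MIR143HG, now CARMN and the host of miR-143 and miR-145, differed by 0.12 ± 0.0984 (adjusted p = 0.613), and MIR31HG, the host of miR-31, by -0.12 ± 0.196 (adjusted p = 0.830). Leaving out 1 array moved these values. MIR100HG ran from 0.50 without FICZ 2 to 0.96 without DMSO 2, MIR181A1HG from 0.13 without FICZ 4 to 0.63 without FICZ 1, and MIR503HG from 0.0624 without DMSO 1 to 0.34 without DMSO 4. MIR143HG ran from 0.0537 without FICZ 1 to 0.17 without FICZ 4, and MIR31HG from -0.25 without DMSO 4 to -0.0024 without FICZ 4. No sign turned and 0 of these fits gave a call for the 5 genes. Of the 6 host genes named as such, 5 had a positive difference, where 44.1% of all rows did, and the median of the 6 was 0.31. Hosts outside this count went both ways. LINC00461 differed by -0.50, and the row it shares with MIR9-2 by 0.24. The row of MIR22HG and MIR22 differed by 0.03, and that of MIR497HG, MIR497 and MIR195 by -0.03. LINC00478, whose cluster is related to that of MIR100HG, differed by 0.22 ± 0.111 (adjusted p = 0.407), with all FICZ arrays (7.91 to 8.10) above all DMSO arrays (7.56 to 7.88).

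**Figure D2:**
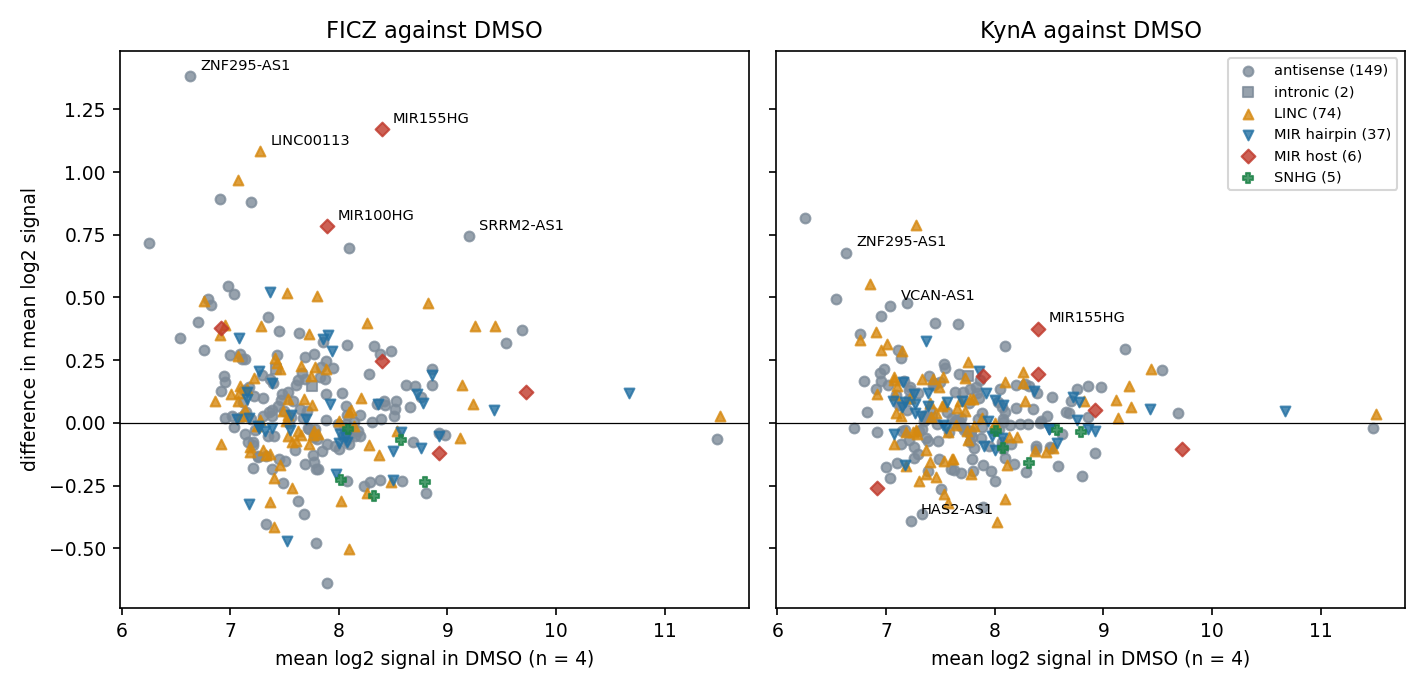
Difference in mean log2 signal against the DMSO mean for all 273 members, FICZ against DMSO on the left and KynA against DMSO on the right, with colour and shape for the class. ZNF295-AS1, MIR155HG and LINC00113 lie above 1 on the left, and no member does so on the right. Differences spread most among members with DMSO means under about 7.5, and both panels share the DMSO arrays.

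Several antisense and intergenic transcripts were higher in every FICZ array than in any DMSO array without passing. SRRM2-AS1 runs antisense to SRRM2, a scaffold protein of nuclear speckles. It gave 9.33, 9.42, 9.33 and 8.71 in DMSO, 9.64, 10.10, 9.72 and 10.32 in FICZ, and 9.57, 9.67, 9.27 and 9.47 in KynA, so that DMSO 4 stood low and FICZ 2 and FICZ 4 stood high. Its difference was 0.74 ± 0.177 (1.68-fold, adjusted p = 0.0932). It passed with the filter at the 50th percentile (0.0449) and with a trended, robust variance (0.0470), out of settings that ranged up to 0.198. SRRM2 differed by -0.15 ± 0.119 (adjusted p = 0.619).

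LINC00668 gave 7.58, 7.43, 7.46 and 7.62 in DMSO and 7.81, 8.03, 8.02 and 8.31 in FICZ, and 7.41, 7.92, 7.59 and 7.91 in KynA. The DMSO arrays lay close together and below every FICZ array, and the KynA arrays spanned both ranges. Its FICZ difference was 0.52 ± 0.129 (adjusted p = 0.106). VCAN-AS1, antisense to the matrix proteoglycan versican, gave 7.14, 7.06, 6.73 and 7.22 in DMSO, 7.68, 7.29, 7.55 and 7.69 in FICZ, and 7.36, 7.40, 7.48 and 7.77 in KynA. Both treated groups lay above all DMSO arrays and overlapped each other. The FICZ difference was 0.51 ± 0.131 (adjusted p = 0.119), while VCAN itself differed by 0.27 ± 0.162 (adjusted p = 0.502).

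LINC00671 differed by 0.48 ± 0.132 (adjusted p = 0.150), with DMSO 4 at 8.46 below the other DMSO arrays at 8.90 to 8.98 and FICZ arrays at 9.09 to 9.60. SSTR5-AS1, antisense to a somatostatin receptor gene and among the members with the highest signal, differed by 0.37 ± 0.137 (adjusted p = 0.264), from 9.29 to 9.88 in DMSO to 9.93 to 10.23 in FICZ. SSTR5 differed by -0.01. LINC00113, named after its values were seen because it was the remaining member past 2-fold, gave 6.53, 7.57, 7.78 and 7.21 in DMSO, 7.70, 8.80, 7.67 and 9.26 in FICZ, and 8.83, 8.30, 7.55 and 7.57 in KynA. The arrays of each of its groups spread over more than 1 log2 unit and overlapped, and the difference was 1.08 ± 0.392 (adjusted p = 0.258).

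Among the hairpin rows, MIR933 gave 7.78 to 8.00 in DMSO and 8.07 to 8.34 in FICZ, a difference of 0.33 ± 0.0943 (adjusted p = 0.160). It lies within ATF2, a transcription factor of the CREB family, whose row differed by -0.09. MIR4692 gave 7.10 to 7.69 in DMSO and 7.69 to 8.30 in FICZ, with its groups just apart (0.52 ± 0.149, adjusted p = 0.160), and STARD10, the lipid transfer gene around it, differed by -0.07. MIR891A, an X-linked hairpin best known from epididymis, differed by -0.47 ± 0.154 (adjusted p = 0.218), and its groups overlapped. RefSeq places 31 of the 37 hairpins within a gene, and for 21 of them that gene had a row. Whether a hairpin row reads the hairpin or the transcript around it cannot be told apart without the probe positions.

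At an unadjusted p under 0.05, 10 members (3.66%) were lower after FICZ and 29 (10.6%) higher, against 7.16% and 6.11% of all rows. Groups did not overlap for 9 members that were lower (3.30%) and 11 that were higher (4.03%). Over all rows that share was 7.16% in both directions together, and its split by direction is not given here. The lower differences reached -0.64 and the higher ones 1.38. ZNF790-AS1, antisense to a zinc finger gene, had the largest negative difference. Its signal was 7.88, 8.13, 7.90 and 7.63 in DMSO, 7.51, 7.41, 7.02 and 7.06 in FICZ, and 7.78, 7.33, 7.57 and 8.20 in KynA. All FICZ arrays lay below all DMSO arrays, and the KynA arrays spread across both. The difference was -0.64 ± 0.177 (95% interval -1.02 to -0.26, adjusted p = 0.150), and ZNF790 differed by 0.07. LINC00461, the miR-9-2 host of neural cells, gave 8.14, 8.15, 8.04 and 8.04 in DMSO, 7.72, 7.39, 7.67 and 7.59 in FICZ, and 7.77, 7.23, 8.29 and 7.88 in KynA. The DMSO arrays lay close together above all FICZ arrays, and the difference was -0.50 ± 0.169 (adjusted p = 0.228). A further row, shared by LINC00461 and MIR9-2 and so outside the rule, went the other way. It differed by 0.24 ± 0.286 after FICZ (adjusted p = 0.752) and by 0.28 after KynA, with overlap between the groups. LOXL1-AS1 (-0.23 ± 0.0832, adjusted p = 0.263) and NAV2-AS2 (-0.24 ± 0.104, adjusted p = 0.346) were lower in every FICZ array. Their sense genes LOXL1, a matrix cross-linking enzyme, and NAV2, a neuron navigator gene, differed by -0.17 and -0.32. LINC00521, which RefSeq now lists as the protein-coding gene CCDC197, differed by -0.31 ± 0.139 (adjusted p = 0.358), and MIR596 by -0.32 ± 0.121 (adjusted p = 0.273).

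The 5 SNHG transcripts all had negative FICZ differences, with a median of -0.23, and none passed. SNHG12 had the smallest p of these 5. It gave 8.18, 8.28, 8.53 and 8.29 in DMSO, 7.93, 7.94, 8.19 and 8.06 in FICZ, and 7.90, 8.00, 8.42 and 8.32 in KynA, a FICZ difference of -0.29 ± 0.124 (adjusted p = 0.340) with overlap only between DMSO 1 and FICZ 3. SNHG7 differed by -0.24, SNHG15 by -0.23, SNHG8 by -0.07 and SNHG17 by -0.02, and for SNHG17 the sign turned in 3 of the 12 fits that left out an array. Other SNHG rows carry several symbols and so fall outside the rule. They ran from -0.28 ± 0.0947 for SNHG6 (adjusted p = 0.226, all FICZ arrays below all DMSO arrays) to -0.0071 for SNHG14. A second row of SNHG17 differed by -0.21 ± 0.178. Of 8 core proteins of small nucleolar ribonucleoproteins, 6 had a row of their own symbol and 2 a row shared with small RNAs in their introns. None of the 8 passed, and 3 had an unadjusted p under 0.05, all with a negative difference. Of all rows, 7.16% were lower at that threshold. Among the 6 rows of their own symbol it was 1, FBL. FBL, the methyltransferase fibrillarin, differed by -0.26 ± 0.0890 (adjusted p = 0.240). The shared row of NOP56 differed by -0.39 ± 0.102 (adjusted p = 0.128), and that of DKC1, the pseudouridine synthase dyskerin, by -0.19 ± 0.0846 (adjusted p = 0.364). Of 8 factors of nonsense-mediated decay, 4 had a row of their own symbol and 1, the kinase SMG1, a shared row. None of the 5 passed, with 0 at an unadjusted p under 0.05. UPF1, the decay helicase, differed by -0.14 (adjusted p = 0.642).

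**Figure D3:**
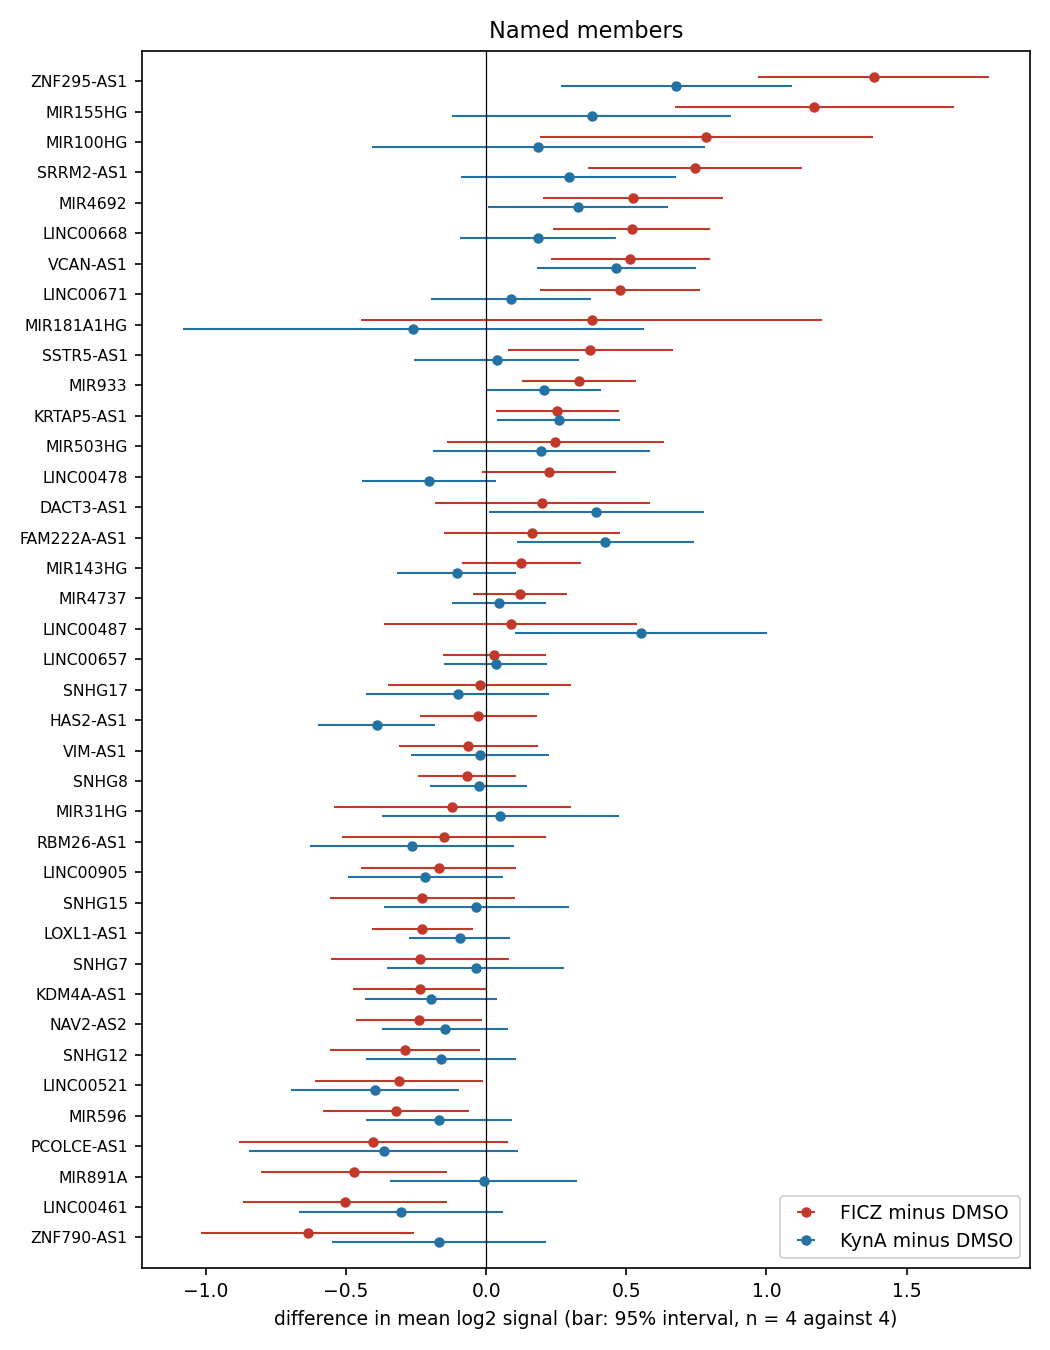
Differences in mean log2 signal for the 39 named members, FICZ minus DMSO in red and KynA minus DMSO in blue, with 95% intervals from the limma fit (n = 4 against 4). Members are ordered by the FICZ difference, from ZNF295-AS1 at 1.38 to ZNF790-AS1 at -0.64. The intervals are not adjusted for the number of rows, and the colours share the DMSO arrays.

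Antisense transcripts were set beside the genes they oppose. Without the probe sequences, whether an antisense row also reads the sense transcript cannot be told apart. Of the 151 antisense and intronic members, 121 had a row of the sense or host gene's own symbol. None of these genes passed after FICZ or after KynA by limma's adjusted p, and the signs of the FICZ differences matched in 65 of the 121 pairs. At an unadjusted p under 0.05 there were 18 of the 121 sense genes, where the share of all rows was 13.3%. Of these 18, 10 had the sign of their noncoding partner. One was GATA3, a transcription factor gene, which differed by 0.43 ± 0.115 (adjusted p = 0.136), with all FICZ arrays above all DMSO arrays, beside 0.72 ± 0.410 for GATA3-AS1. That pair was picked after its values were seen. Among the 13 named pairs the signs matched in 8, and the noncoding row differed by more in size in 10. The other 3 were NAV2-AS2, HAS2-AS1 and VIM-AS1. Most of these members were named for a small p, which by itself favours a larger difference in the member. Over all 121 pairs the noncoding row differed by more in 66. Among the 18 sense genes, picked by their own p, the sense gene differed by more in 13. VIM-AS1, beside the abundant intermediate filament gene VIM, differed by -0.06, and VIM by -0.10.

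**Figure D4:**
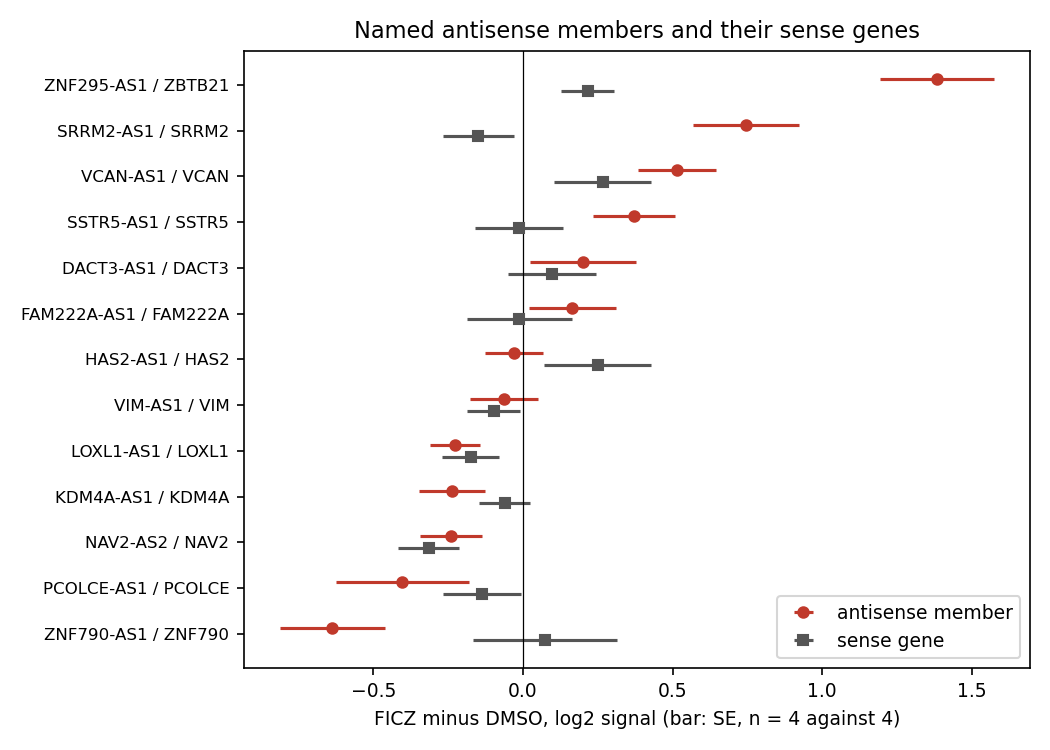
FICZ minus DMSO on the log2 scale for 13 named antisense members (red) and the sense gene of each (grey), with SE bars (n = 4 against 4). ZNF295-AS1 lies at 1.38 and its sense gene ZBTB21 at 0.22. SRRM2-AS1 lies at 0.74 and SRRM2 at -0.15. None of the sense genes passed.

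By sign and by unadjusted p, the balance of directions differed from that of the table. Among the members whose groups did not overlap, 11 were higher and 9 lower, which was not set against the table by direction. After FICZ, 162 members (59.3%) had a positive difference, against 44.1% of all rows, and the median was 0.04 against -0.02. At an unadjusted p under 0.05, 10.6% of members were higher and 3.66% lower, while 6.11% of all rows were higher and 7.16% lower. Without FICZ 4 fewer members had an unadjusted p under 0.05, 21 in all with 16 higher and 5 lower, or 7.69%, against 10.1% of all rows. The rows were split into 4 bands of equal size by mean signal. From the dimmest band to the brightest, the median FICZ difference of the members was 0.0451, -0.0028, 0.0732 and 0.1249. For the rows it was 0.0088, -0.0085, -0.0251 and -0.0498, so the all-row median also depends on signal. In the dimmest band 12.5% of the 128 members had an unadjusted p under 0.05, against 12.97% of the rows there. In the brightest band it was 45.5% of 11 members, against 13.4% of the rows. The part of FICZ 4 in the shares by band was not tested. In that band SRRM2-AS1 and SSTR5-AS1 had all FICZ arrays above all DMSO arrays, at 0.74 and 0.37, and the other members of it overlapped. The 3 members with the highest DMSO means had smaller differences. VIM-AS1 differed by -0.06 ± 0.114, LINC00657, now NORAD, an abundant RNA that binds Pumilio proteins, differed by 0.03 ± 0.0850 (95% interval -0.15 to 0.21), and the hairpin row MIR4737 by 0.12 ± 0.0779. Of the members that RefSeq now lists otherwise, 18 are protein-coding, and 0 of these passed, with 4 at an unadjusted p under 0.05. The share of all rows at that threshold was 13.3%.

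The same question was asked of KynA. With limma 0 members passed, where 0.00635% of all rows passed (1 row, the AHR responder SLC16A6, a monocarboxylate transporter family gene). Without DMSO 2 or without KynA 3 no row passed. At an unadjusted p under 0.05 there were 10 members, 8 higher and 2 lower, or 3.66%, against 3.24% of all rows (1.9% higher and 1.33% lower). The groups did not overlap for 6 members (2.20%), against 2.28% of all rows. ZNF295-AS1 was among them, with a difference of 0.68 ± 0.191 (1.60-fold, 95% interval 0.27 to 1.09, unadjusted p = 0.00348, adjusted p = 1.00). VCAN-AS1 differed by 0.46 ± 0.131 (unadjusted p = 0.00360, adjusted p = 1.00). MIR155HG differed by 0.38 ± 0.231, and its interval of -0.12 to 0.88 held 0 and overlapped the FICZ interval.

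HAS2-AS1, antisense to the hyaluronan synthase gene HAS2, had the smallest p of the members after KynA. It gave 7.13, 7.34, 7.38 and 7.05 in DMSO, 6.79, 6.83, 6.73 and 6.99 in KynA, and 7.29, 7.22, 7.22 and 7.06 in FICZ. The KynA arrays lay below all others, and the FICZ arrays lay among the DMSO arrays. The KynA difference was -0.39 ± 0.0969 (unadjusted p = 0.00141, adjusted p = 0.948), and HAS2 differed by 0.04 after KynA. Other members differed in the positive direction. FAM222A-AS1 differed by 0.43 ± 0.146, with KynA arrays at 7.30 to 7.47 and DMSO arrays at 6.67 to 7.09. LINC00487 differed by 0.55 ± 0.209, and DACT3-AS1, beside a Wnt pathway antagonist gene, by 0.39 ± 0.178. KRTAP5-AS1 differed by 0.26 ± 0.102 after KynA and 0.25 ± 0.102 after FICZ. Each of these 4 had an adjusted p of 1.00 after KynA.

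FICZ against KynA set the treated arrays directly against each other, at doses that differ. With limma 0 members passed, where 0.0190% of all rows passed (3 rows). At an unadjusted p under 0.05 there were 24 members, 17 higher and 7 lower with FICZ, or 8.79%, against 7.56% of all rows (3.11% higher and 4.45% lower), and 8 members did not overlap (2.93%, against 4.04% of all rows). LINC00478 had the smallest p. It gave 8.03, 7.98, 7.91 and 8.10 in FICZ and 7.54, 7.88, 7.38 and 7.52 in KynA, a difference of 0.43 ± 0.111 (adjusted p = 0.435). MIR155HG was higher with FICZ by 0.80 ± 0.231 (95% interval 0.30 to 1.29, adjusted p = 0.471) and ZNF295-AS1 by 0.70 ± 0.191 (0.29 to 1.12, adjusted p = 0.440). VCAN-AS1 differed by 0.05 ± 0.131 (95% interval -0.23 to 0.33). HAS2-AS1 was higher with FICZ by 0.36 ± 0.0969 (adjusted p = 0.440).

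Well-known noncoding RNAs whose names fall outside the rule were also read. Of 31 listed, 21 had a row of their own symbol, 1 of which is LINC00657 under its current name NORAD, and 2 a row shared with other symbols. After FICZ 1 passed, LUCAT1, a long noncoding RNA first described in lung cancer. It gave 7.21, 7.12, 7.10 and 7.45 in DMSO, 7.83, 8.06, 8.08 and 8.45 in FICZ, and 6.94, 7.62, 7.41 and 7.32 in KynA. All FICZ arrays lay above all others, and the KynA arrays lay on both sides of the DMSO arrays. LUCAT1 rose by 0.88 ± 0.154 with FICZ (1.84-fold, adjusted p = 0.0230), and with KynA it differed by 0.10 ± 0.154 (95% interval -0.23 to 0.43). The call of LUCAT1 held in 7 of the 12 fits that left out an array. It was lost when DMSO 1, 2 or 3, FICZ 2 or FICZ 4 was left out, with an adjusted p that reached 0.0828 without DMSO 3. MALAT1 and NEAT1, nuclear RNAs of speckles and paraspeckles, differed by -0.14 ± 0.164 and 0.24 ± 0.329. MEG3, an imprinted RNA, differed by 0.60 ± 0.290 (adjusted p = 0.398). GAS5, a host of small nucleolar RNAs, and ZFAS1, another such host, have the shared rows. After FICZ they differed by -0.34 ± 0.134 (adjusted p = 0.298), with all FICZ arrays below all DMSO arrays for GAS5, and by -0.18 ± 0.106 (adjusted p = 0.474). Of the 23 rows, 0 passed after KynA, and 0 had an unadjusted p under 0.05 there.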

How the data were processed

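The deposited values are log2 signals. Per the submitters' processing notes the authors used oligo and RMA, without stated versions. The rule that left dim rows out was not stated in any source used here. Symbols came from the platform annotation: 13577 rows had 1 symbol, 744 several and 1438 none. RefSeq (GRCh38.p14) matched 217 members by current symbol and 54 by a single older one, and 2 were not matched. The file's build is not given, so array coordinates are not printed.

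From these values, limma's group-means fit (lmFit and eBayes, two-sided, 9 residual and 4.18 prior degrees of freedom) was run on all 15759 rows and 12 arrays without a filter, so that every member was tested, with Benjamini-Hochberg adjustment over all rows and a threshold of 0.05. An unadjusted p is limma's p before that adjustment. Members, gene lists and tests were chosen with earlier results of these data known. Named members were MIR155HG, all that passed, the 8 smallest p in each direction against DMSO for each ligand, all MIR host and SNHG genes, and the 5 highest DMSO means. The same rule gave each named antisense member its sense gene.

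The alternatives tried were cyclic loess, median centring of each array, filters at the 25th and 50th percentile in at least 4 arrays, 1 row per symbol, a trended and robust variance, array weights, the replicate number as a block, only the groups compared, leaving out each array, and, added after seeing the data, the 25th percentile filter with 1 row per symbol. Same-numbered arrays deviated with correlations of -0.120 to 0.156, above 0.1 in 5 of 12 pairs, and the numbers were not taken to pair the samples. The correlation estimated for the block was 0.0553, and with it 89 rows passed after FICZ, against 61. Some rows did follow the number. NEAT1 gave 9.23, 9.67, 9.91 and 10.13 in DMSO, 8.96, 9.83, 10.38 and 10.72 in FICZ, and 9.04, 10.06, 9.56 and 9.74 in KynA. For such rows the unpaired SE may be too wide, which was not tested. Simulated data in the layout of FICZ against DMSO held 15759 rows. Of those given a log2 change of 0.5, 17 of 50 members and 25 of 50 other rows were recovered. Given a change of 1, 45 and 43 of 50 were, while 8 unchanged rows were called. The simulated noise was independent between rows, without array or replicate effects, and the planted changes themselves loosen the adjustment. Recovery in the real arrays may therefore be lower. Precision is limited by the number of arrays, and there is no read depth. The fits used limma 3.58.1 in R 4.3.3, tables were read with data.table (1.17.8), and plots were drawn with matplotlib 3.10.9 and pandas 2.3.3 in Python 3.11.15.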

Additional observations from a re-analysis of the deposited data

Results flagged for a closer look

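Among the 39 named members, 117 groups of 4 arrays were examined for 1 array far from the other 3, and 6 were found (5.13%), where chance gives about 1 in 20. SRRM2-AS1 was low in DMSO 4, at 8.71 against 9.33 to 9.42 in the other DMSO arrays. LINC00671 was low in the same array, at 8.46 against 8.90 to 8.98. NAV2-AS2 was high in DMSO 2, at 7.74 against 7.39 to 7.41, and LINC00478 was low in that array, at 7.56 against 7.83 to 7.88. MIR4692 was low in KynA 3, at 7.51 against 7.73 to 7.77. MIR181A1HG was low in KynA 1, at 5.48 against 6.98 to 7.15.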

How the results depend on the processing

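The rise of ZNF295-AS1 with FICZ held its call in every setting that tested it, and both percentile filters, which kept 160 and 61 members, left it out. MIR155HG, just outside the threshold at an adjusted p of 0.0501, passed with cyclic loess (1.20, adjusted p = 0.0463) and, at a difference of 1.17, with the filter at the 25th percentile (0.0309), at the 50th (0.0189), with 1 row per symbol (0.0462), with a trended and robust variance (0.0253), with the replicate block (0.0432) and with the filter and 1 row per symbol together (0.0268). It did not pass with centred arrays (0.0514), array weights (1.09, 0.0608) or only the groups compared (0.0929). Members passing after FICZ, 1 by the fit on all rows, were 2 with cyclic loess, the 50th percentile filter, 1 row per symbol or the replicate block, and 3 with a trended and robust variance. Rows passing after FICZ, 61 by that fit, were 102 with the 50th percentile filter, 130 with a trended and robust variance, 89 with the replicate block, 32 with only the groups compared and 92 with the added filter. Rows passing after KynA, 1 by that fit, were 2 with either filter, 3 with a trended and robust variance and 0 with only the groups compared. Rows passing between FICZ and KynA, 3 by that fit, were 1 with only the groups compared and 1 with the added filter. The replicate block changed no other call among the named members.

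Leaving out 1 array gave 28 to 91 rows passing after FICZ, 0 to 2 after KynA and 0 to 3 between the ligands, 1 to 2 members after FICZ and 0 to 0 in the other comparisons. MIR155HG ranged from 0.98 to 1.32 after FICZ, 0.26 to 0.50 after KynA and 0.60 to 0.94 between the ligands. The median of the members ranged from 0.03 to 0.07 after FICZ and from 0.01 to 0.05 after KynA. The sign of some small differences turned. After FICZ these were HAS2-AS1 (-0.0870 to 0.0244), LINC00487 (-0.14 to 0.27), LINC00657 (-0.0023 to 0.0794) and SNHG17 (-0.16 to 0.0874). After KynA they were LINC00657 (-0.0020 to 0.0778), LINC00671 (-0.0310 to 0.14), MIR181A1HG (-0.42 to 0.13), MIR31HG (-0.11 to 0.17), MIR891A (-0.13 to 0.0647), SNHG15 (-0.12 to 0.0352), SNHG17 (-0.24 to 0.0089), SNHG7 (-0.15 to 0.0650), SSTR5-AS1 (-0.0944 to 0.12) and VIM-AS1 (-0.0720 to 0.0707). The cause of these changes was not tested, beyond that the filters test fewer rows and the last settings use fewer arrays. Precision is limited by the number of arrays, 4 a group.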

Other observations

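Rows with several platform symbols were outside the rule, and 97 of them hold at least 1 symbol that follows it. None passed after FICZ. The NOP56 row, shared with a hairpin and 3 small nucleolar RNAs within that gene, had the smallest p of these and was named after its values were seen. It gave 9.84, 9.48, 9.59 and 9.56 in DMSO, 9.32, 9.31, 9.16 and 9.10 in FICZ, and 9.46, 9.52, 9.77 and 9.48 in KynA, with all FICZ arrays below all others. Its KynA difference was -0.06. The row shared by PCAT6 and KDM5B-AS1 differed by 0.63 ± 0.183 after FICZ (adjusted p = 0.172), with overlap between the groups, and was chosen likewise.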
